A study of Sorghum bicolor with 12 samples.

Results

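Roots of the sorghum line NIL-bri1-72 were compared between plants held at 30% of field capacity and watered plants. The members are all 20818 gene identifiers of the deposited count table, read in the 3 droughted and the 3 watered libraries of this line, that is in 6 of the 12 libraries of the series. NIL-bri1-72 comes from BC2F3 plants of an EMS-mutagenized family and carries a single-nucleotide change in the receptor gene SbBRI1, in the region that codes for its extracellular part. Its sister line NIL-WT-72 lacks that change and was grown in the same regimes, with 3 libraries in each. Both lines share the mutagenized background and are near-isogenic by assumption, and there is 1 line per genotype, so the receptor change and any other segment that differs between the lines cannot be told apart. Roots were taken from mature plants, and the series design calls the replicates biological.

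Brassinosteroids are plant steroid hormones that promote cell elongation and division. They bind the extracellular domain of BRI1, a receptor kinase of the plasma membrane, and the signal ends at BES1 and related transcription factors, which enter the nucleus when the pathway is active. In Arabidopsis, roots short of water raise abscisic acid, a stress hormone, and the abscisic acid and brassinosteroid pathways counteract each other at several steps. The table pairs no identifier with a gene name, and 0 of its 20818 identifiers matched the 32945 genes of the RefSeq sorghum table used here. Genes are therefore given by identifier and by the chromosome that the identifier's digits stand for, without a function, and lists of drought, hormone or phenylpropanoid genes, root markers and shoot markers could not be applied.

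The 6 libraries held between 24406967 and 33296273 counts, and the 10 most abundant genes took 2.85 to 3.17% of them in each library. No library had a count of 0. The smallest count per library was 10 to 13, so a gene silent in either regime is not in the table, and a switch from off to on is not analysed here.

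Droughted replicate 1 stood apart from the other droughted libraries before any gene was tested. On the first principal component of log2 CPM (the count scaled to library size), which held 42.0% of the variance, watered replicates 1, 2 and 3 lay at -27.6, -11.2 and -21.3. Droughted replicates 2 and 3 lay at 48.5 and 30.9, whereas droughted replicate 1 lay at -19.3, within the range of the watered libraries. The second component, with 21.6%, placed droughted replicate 1 at the other end from watered replicate 3, at 33.7 against -28.9. Gene by gene, droughted replicate 1 differed at least 2-fold from watered replicate 1 for 458 genes, from watered replicate 2 for 745 and from watered replicate 3 for 967. It differed by as much for 1720 genes from droughted replicate 2 and for 1147 from droughted replicate 3. Between the watered libraries themselves that number was 337 to 720. Counts of called genes, the counts of fold changes of at least 1 log2 unit and the SD of the fold changes are given below with and without this library.

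**Figure D1:**
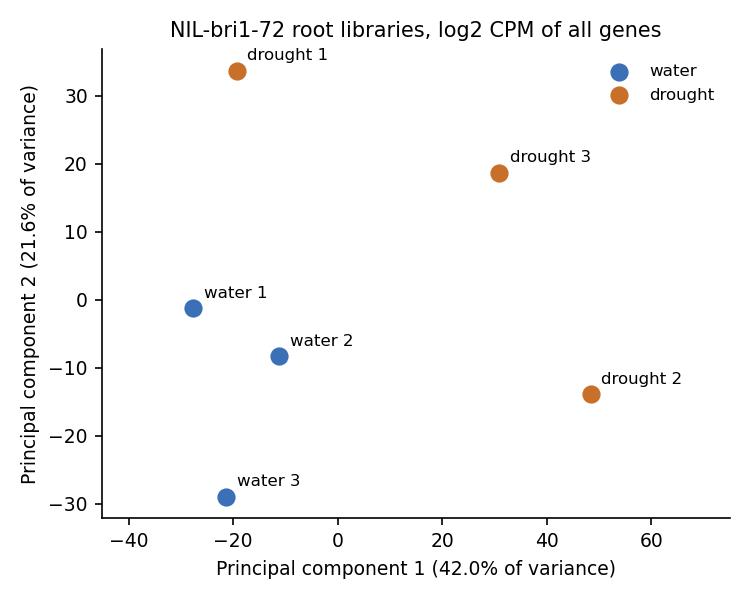
First and second principal components of the 6 NIL-bri1-72 libraries, from log2 CPM of all genes. Droughted replicates 2 and 3 lie to the right at 48.5 and 30.9 on the first component, while droughted replicate 1 lies at -19.3 among the watered libraries.

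The droughted plants also differed more from each other than the watered plants did. The SD of a gene over the 3 replicates had a median of 0.224 log2 units in drought and 0.132 in water. This wider spread did not come from droughted replicate 1 alone, since droughted replicates 2 and 3 differed from each other by a median of 0.248 log2 units, and watered replicates 2 and 3 by 0.164.

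Most genes differed little between drought and water. The SD of the log2 fold change, drought over water, was 0.343 over all genes, and the central 90% of the genes lay between -0.53 and 0.45. A log2 fold change of at least 1 upward was fitted for 179 genes and of at least 1 downward for 274, and without droughted replicate 1 these numbers were 228 and 620. At 2 log2 units or more, counted only with droughted replicate 1 included, the order turned, with 28 genes upward and 20 downward. No gene passed the main test, edgeR's quasi-likelihood test with Benjamini-Hochberg adjusted p below 0.05 (0% of the genes in either direction), and the lowest adjusted p was 0.0638. An unadjusted edgeR p below 0.05 was reached by 740 genes with higher and 778 with lower levels in drought, 3.55% and 3.74% of the genes and 7.29% together. That total of 1518 was 3131 without droughted replicate 1 and 985 without watered replicate 1. All 3 droughted libraries lay above all 3 watered ones for 1197 genes and below them for 1336, 5.75% and 6.42% of the genes. With upper-quartile scaling in place of TMM this order turned, at 1279 and 1256 genes. For a gene without any difference, 3 libraries separate fully from 3 others, in either direction, with a probability of 0.1. The share seen was 12.2%, so separation alone does not mark a gene as responding to drought.

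DESeq2, an alternative test on the same counts, called 202 genes, 0.97% of the 20818, with 91 higher (0.437%) and 111 lower (0.533%) in drought. Their edgeR adjusted p ran from 0.0638 to 0.456, so none of them passes by edgeR, although each had an unadjusted edgeR p below 0.05. The 91 higher genes had a median log2 fold change of 1.07 and the 111 lower genes one of -1.26. The droughted and watered libraries did not overlap for 85 of the 91 and for all 111, beside 5.75% and 6.42% over all genes. Choosing these genes on the same libraries favours this, so it is no support for the calls. Fold changes of at least 2 log2 units were held by 18 of the higher and 13 of the lower genes. On simulated counts of 20818 genes for this comparison, edgeR recovered 42% and DESeq2 66% of the genes changed 2-fold, and 86% and 94% of those changed 4-fold. In that simulation edgeR also called 12 and DESeq2 46 of the 20618 unchanged genes. With 50 genes changed at each of 1.5-, 2-, 4- and 8-fold, DESeq2 called 18, 33, 47 and 50, and edgeR 5, 21, 43 and 50. In that simulated set the false share of the calls was thus above the 0.05 set in both tools, and more so in DESeq2. How this share varies between simulated sets was not examined. The simulation gave each gene the same spread in all groups, whereas the droughted libraries were more spread than the watered ones.

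**Figure D2:**
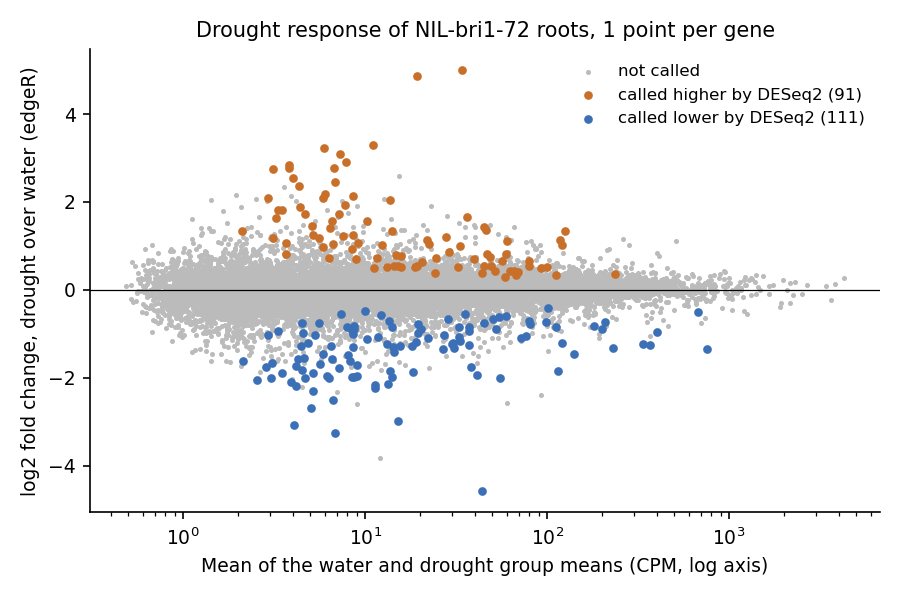
Fitted log2 fold change, drought over water, against the mean level in CPM (log axis), with 1 point per gene. The 91 genes called higher and 111 called lower by DESeq2 are coloured, and most of them lie between 1 and 100 CPM.

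The share of genes called by DESeq2 was somewhat higher at 1 to 10 CPM than at 10 to 100 or 100 to 1000 CPM. The called genes had a median of 13.7 CPM, against 17.8 CPM over all genes. Genes with a mean of 10 to 100 CPM gave 47 higher and 49 lower DESeq2 calls out of 10866, a share of 0.883%. Those with 1 to 10 CPM gave 38 higher and 48 lower calls out of 7223, a share of 1.19%. DESeq2 gave no adjusted p for 870 of these 7223, against 9 of the 10866, so the share among genes it could call was higher still. Among the 2297 genes of 100 to 1000 CPM there were 6 higher and 14 lower calls, 0.871%. Of the 382 genes under 1 CPM, DESeq2 gave no adjusted p for 380, so these could not be called. None of the 50 genes over 1000 CPM was called, and the fitted log2 fold changes of these most abundant transcripts stayed between -0.55 and 0.33.

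Sobic.009G171400 on chromosome 9 had the lowest edgeR p among the genes with higher levels in drought. It was at 1.83, 0.799 and 0.767 CPM in the watered replicates 1, 2 and 3, and at 13.6, 5.62 and 13.1 CPM in the droughted replicates 1, 2 and 3. All 3 droughted libraries lay above all 3 watered ones, and droughted replicate 1 was the highest of the 6. The rule for named genes required such a separation of each of them, so it is not a finding. The mean of Sobic.009G171400 reached the 10 CPM of that rule in drought only. The group means were 1.13 ± 0.606 and 10.8 ± 4.48 CPM (SD, n = 3), a 9.52-fold difference. This was 3.22 ± 0.43 on the log2 scale (fitted value ± SE), at an edgeR adjusted p of 0.0638. The watered values of Sobic.009G171400 rest on 62, 20 and 19 reads. It passed edgeR's threshold without droughted replicate 2 (log2 fold change 3.52, edgeR adjusted p = 0.0130).

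Sobic.005G017200 on chromosome 5 was next among the higher genes, with a small but even difference. The watered replicates held 27.6, 26.3 and 26.04 CPM of it, and the droughted replicates 36.5, 40.6 and 37.1 CPM. The watered libraries lay close together and the groups were well apart, at 26.6 ± 0.840 and 38.1 ± 2.23 CPM (SD, n = 3). The difference was 1.43-fold, or 0.51 ± 0.08 on the log2 scale (fitted value ± SE), at an edgeR adjusted p of 0.104.

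Sobic.010G168800 on chromosome 10, an abundant transcript, had the lowest edgeR p of all genes with lower levels in drought. It was at 548.1, 531.03 and 513.2 CPM in the watered replicates and at 308.1, 280.1 and 234.8 CPM in the droughted ones. Each droughted library lay far below each watered one, and droughted replicate 1 was the highest of the droughted libraries. The means were 530.8 ± 17.5 and 274.3 ± 37.0 CPM (SD, n = 3), 1.93-fold lower in drought, or -0.95 ± 0.12 on the log2 scale (fitted value ± SE), at an edgeR adjusted p of 0.0638. Without droughted replicate 1 the log2 fold change of Sobic.010G168800 was -1.05 and edgeR's adjusted p was 0.0445, past the threshold.

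Sobic.005G161100 on chromosome 5 showed the larger relative difference of the lower genes named. The watered replicates held 8.57, 12.9 and 15.5 CPM of it, and the droughted replicates 1.03, 1.70 and 1.15 CPM. The droughted libraries lay close together, and the highest of them was still below the lowest watered library by several CPM. Separation was required for naming, and the mean of Sobic.005G161100 reached the required 10 CPM in water only. The means differed 9.55-fold, or -3.25 ± 0.43 on the log2 scale (fitted value ± SE), at an edgeR adjusted p of 0.0638. The droughted values stand on 27, 50 and 37 reads, above the smallest counts of the table. DESeq2 called all 4 of the genes named, with adjusted p of 1.04e-10 for Sobic.009G171400, 1.11e-06 for Sobic.005G017200, 1.69e-11 for Sobic.010G168800 and 7.46e-11 for Sobic.005G161100.

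**Figure D3:**
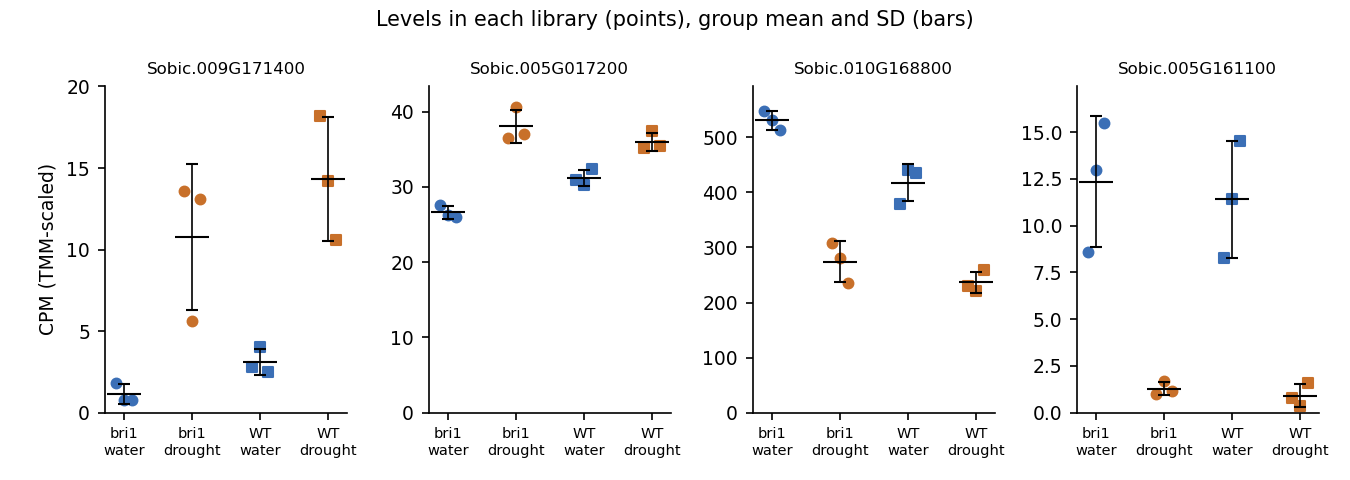
CPM of the 4 named genes in every library, NIL-bri1-72 as circles and NIL-WT-72 as squares, blue for water and orange for drought, with the group mean and SD as bars. In each panel the 3 droughted NIL-bri1-72 libraries lie wholly above or wholly below the 3 watered ones, which the rule for naming genes required. For Sobic.009G171400 they hold 13.6, 5.62 and 13.1 against 1.83, 0.799 and 0.767 CPM.

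The number of genes called by DESeq2 depended on which libraries were used, and most on droughted replicate 1. Without it DESeq2 called 816 genes, 320 higher and 496 lower, among which were 176 of the 202. Without droughted replicate 3 it called 93, 38 higher and 55 lower, and without watered replicates 1 and 3 it called 95 and 94, again with more lower than higher. The order turned without droughted replicate 2, with 74 higher and 61 lower, and without watered replicate 2, with 74 higher and 59 lower. Each of the other omissions kept 81 to 112 of the 202, in lists of 93 to 135 genes. The 176 kept without droughted replicate 1 came in a list of 816, so they do not show a steadier choice of genes. Of the 202 genes, 52 were called under all 6 of these omissions, 20 higher and 32 lower, with a median absolute log2 fold change of 1.33. By edgeR the count of 0 became 4 without droughted replicate 1, 8 without droughted replicate 2 and 1 without watered replicate 1, and it stayed at 0 without any 1 of the other NIL-bri1-72 libraries. It became 14 without NIL-WT-72 drought replicate 3, a library that is on neither side of this comparison and enters through the shared estimate of the spread and the scaling. The SD of the fitted log2 fold changes was 0.436 without droughted replicate 1 and 0.340 to 0.380 without any other 1 of the 6.

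Deviations of same-numbered watered and droughted libraries of this line correlated weakly, which was not tested, and counts with a replicate block are therefore given too. With the block over all 12 libraries edgeR called 0 genes and DESeq2 252, of which 182 were among the 202. With the block within the 6 NIL-bri1-72 libraries edgeR called 0 and DESeq2 504. The same 6 libraries without a block gave 4 genes by edgeR, all 4 lower in drought, and 358 by DESeq2.

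**Figure D4:**
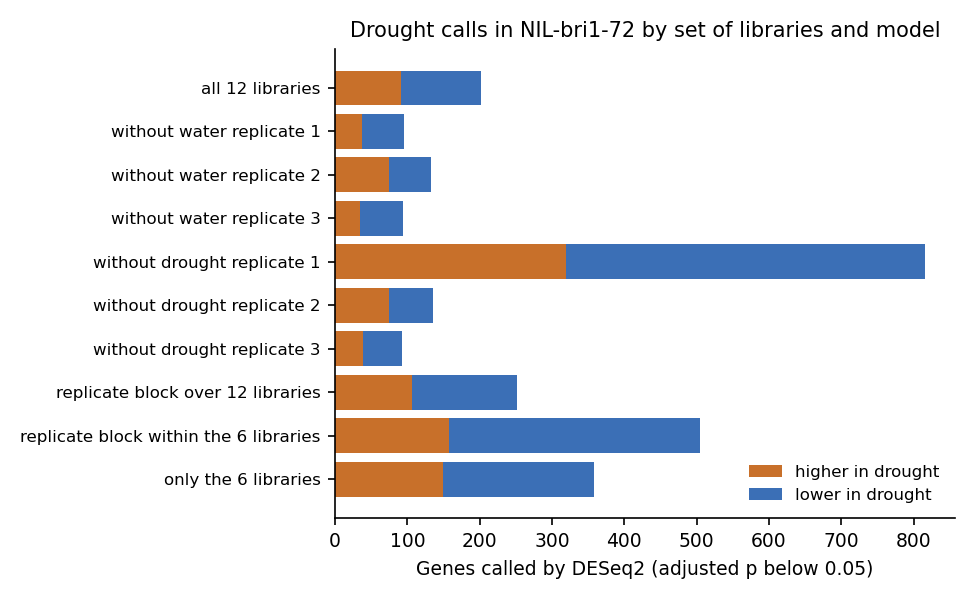
Genes called by DESeq2 for drought in NIL-bri1-72 (horizontal axis, adjusted p below 0.05), split into higher and lower, for all 12 libraries, with each NIL-bri1-72 library left out, and with the replicate block or the 6 libraries alone. The bar without droughted replicate 1 is the longest at 816 genes, against 202 with all libraries.

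How far each droughted library took part in the response was read on genes chosen without it. A mean difference of at least 1 log2 unit from the watered mean in droughted replicates 2 and 3 was seen for 234 genes upward and 595 downward. In droughted replicate 1 those genes differed from the watered mean by medians of 0.34 and -0.22, and 26.1% and 16.1% of them reached 1 log2 unit in the same direction. The same reading in droughted replicate 3, on genes chosen in replicates 1 and 2, gave medians of 1.51 for 120 genes and -1.30 for 285, with 74.2% and 64.6% reaching 1 log2 unit. In droughted replicate 2 the medians were 0.73 for 173 genes and -1.42 for 222, with 37.0% and 74.3% reaching it. Most genes with such a mean difference in droughted replicates 2 and 3 thus stayed under 1 log2 unit in replicate 1. The same watered libraries enter both sides of each of these readings, so agreement in direction is favoured.

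On genes chosen in the other line, droughted replicate 1 was close to its group. DESeq2 called 305 genes for drought in NIL-WT-72, 1.47% of those tested, whose fold changes share no library with NIL-bri1-72. For the 126 of them that were higher in NIL-WT-72 drought, the mean log2 CPM relative to the watered NIL-bri1-72 mean was 0.80, 0.61 and 1.01 in droughted replicates 1, 2 and 3, and -0.17 to 0.13 in the watered libraries. For the 179 that were lower the values were -0.87, -1.11 and -1.28 in drought and -0.04 to 0.05 in water. Droughted replicate 1 thus moved on these genes more than droughted replicate 2 upward and less than the other droughted libraries downward, and no droughted library overlapped the watered ones in either set. The difference of the 2 means, drought minus water, was 1.89 (exact permutation p = 0.1, two-sided, the smallest that 3 against 3 allows). Of the 126 genes 80 were higher in all droughted NIL-bri1-72 libraries than in all watered ones, and of the 179 genes 151 were lower, 63.5% and 84.4%, beside 5.75% and 6.42% over all genes. However, the spread used in calling these genes was estimated over all 12 libraries, NIL-bri1-72 included. Genes with even levels in NIL-bri1-72 replicates were thereby favoured, which favours non-overlap, so these shares are not an independent check.

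**Figure D5:**
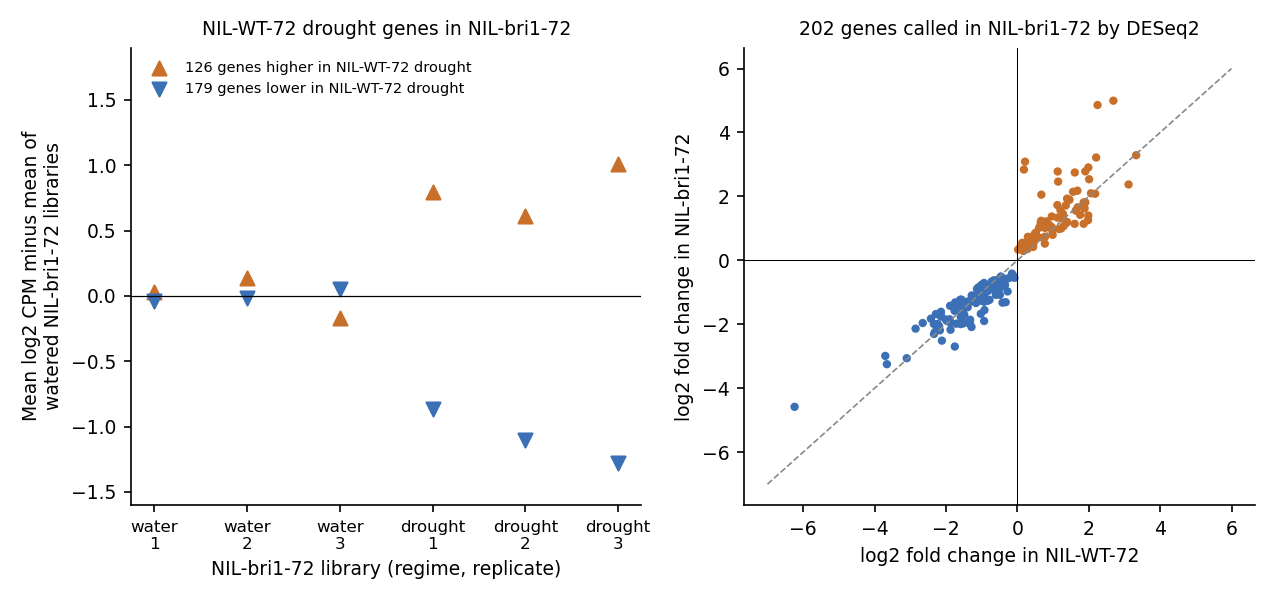
Left, mean log2 CPM relative to the watered NIL-bri1-72 mean, in each NIL-bri1-72 library, of the genes called by DESeq2 in NIL-WT-72 as higher (126) or lower (179) in drought; right, log2 fold changes in both lines of the 202 genes called by DESeq2 in NIL-bri1-72, with the line of equality dashed. All 3 droughted libraries stand apart from the watered ones, and each of the 202 genes has the same sign in both lines.

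Whether the response of NIL-bri1-72 differed from that of NIL-WT-72 was tested by the interaction, in which the drought log2 fold change of NIL-WT-72 is subtracted from that of NIL-bri1-72. No gene passed by edgeR or DESeq2 (0% each), with lowest adjusted p of 1.00 in both, and an unadjusted p below 0.05 was reached by 1.11% of genes in edgeR and 1.36% in DESeq2. Both shares lay below the 0.05 of genes that such a test is set to give without any difference. How small an interaction could be found was not simulated, so the absence of calls does not show that the lines respond alike. All 91 genes called higher by DESeq2 in NIL-bri1-72 had a positive log2 fold change in NIL-WT-72, with a median of 0.82, and all 111 called lower had a negative one, with a median of -1.11. Over all genes the sign was shared by 66.3%. The larger size lay in NIL-bri1-72 for 67 of the 91 and 69 of the 111 genes, which choosing them in NIL-bri1-72 favours. Droughted and watered libraries were apart in the same direction in both lines for 612 genes, which is 24.2% of the 2533 such genes of NIL-bri1-72 and 23.9% of the 2564 of NIL-WT-72. Those 2533 genes were 12.2% of all tested, and in NIL-WT-72 6.67% of genes were apart upward and 5.64% downward. They were apart in opposite directions for 21 genes.

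The 4 named genes showed the same direction in NIL-WT-72. For Sobic.009G171400 the mean there was 3.11 ± 0.801 CPM when watered and 14.3 ± 3.80 CPM when droughted (SD, n = 3), and its interaction was 1.01 log2 units (SE 0.57, edgeR adjusted p = 1.00). The watered level of Sobic.009G171400 was lower in each NIL-bri1-72 library than in each NIL-WT-72 library, and this difference was noticed after its values were seen and was not tested. For Sobic.005G017200 the means in NIL-WT-72 were 31.2 ± 1.09 and 36.02 ± 1.20 CPM (SD, n = 3). Its interaction of 0.31 (SE 0.11) had an unadjusted edgeR p of 0.0166 and an adjusted p of 1.00. Sobic.010G168800 went from 417.7 ± 33.8 to 237.0 ± 19.4 CPM in NIL-WT-72, an interaction of -0.13 (SE 0.16), and Sobic.005G161100 from 11.4 ± 3.12 to 0.911 ± 0.615 CPM, an interaction of 0.41 (SE 0.59). In bulk roots a change in the share of a cell type and a change of RNA level within cells cannot be told apart.

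By the identifiers' numbering, 201 of the 202 genes called by DESeq2 were spread over all 10 chromosomes, and 1 has an identifier with no chromosome number. The share of tested genes called was 1.35% on chromosome 8 and 1.33% on chromosome 5, at the high end, and 0.531% on chromosome 4 and 0.739% on chromosome 7, at the low end, beside 0.97% in all. Chromosome 3 held more higher than lower calls, 20 against 12, whereas chromosome 10 held 4 higher and 11 lower. Genes next to each other in the table were called in the same direction in 4 pairs, 1 higher and 3 lower, and no run was longer than 2 genes. These shares and pairs are a description and were not tested.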

How the data were processed

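Polyadenylated RNA of sorghum roots had been sequenced as 100-base pairs from stranded libraries, per the labels' protocols. The authors deposited raw counts per gene identifier. The submitters' processing notes name HISAT2 2.1.0, beside FastQC 0.11.2, Trimmomatic 0.38 and also featureCounts 1.6.2. Genome build, annotation and strand setting: not given in the sources used here. Reads may therefore be shared between near-identical copies or with antisense genes. All 12 columns were matched to samples by their labels.

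Counts were fitted with edgeR 4.0.16 in R 4.3.3 as 4 group means over all 12 libraries, with TMM scaling and no block. Its filterByExpr rule kept all 20818 genes. CPM values are TMM-scaled, log2 CPM used a prior count of 2, and SE is the absolute log2 fold change over the square root of F. DESeq2 1.42.0 gave no adjusted p for 1259 genes, which stay uncalled. limma 3.58.1 supplied voom.

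Deviations of same-numbered watered and droughted NIL-bri1-72 libraries correlated weakly (r = 0.360, 0.190 and 0.125 over genes, against -0.280 to 0.0429 for unlike numbers). Whether same numbers go together was not tested. The labels do not say what a number marks. The main fit, the named genes and the interaction use no pairing, and a replicate block enters only in alternative fits. Named genes were the 2 per direction with the lowest edgeR p among genes of at least 10 CPM in a group whose regimes did not overlap. The script was tested on simulated data, 50 genes per fold size. Genes, rules and 32 lists, none of which could be applied, were chosen with earlier results of these data known. Counting error is covered by the model, and p-values measure the spread between these plants only.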

Additional observations from a re-analysis of the deposited data

How the results depend on the processing

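The count of 0 genes for drought in NIL-bri1-72 was also 0 by limma voom, with RLE or upper-quartile scaling, without a filter, with a filter of 1 CPM in 3 libraries, with thinned counts and with the replicate block over 12 libraries or within 6. It was 202 by DESeq2 (91 higher, 111 lower), 358 by DESeq2 on the 6 NIL-bri1-72 libraries (149 higher, 209 lower), 4 by edgeR on those 6 (0 higher, 4 lower) and 1 by voom with quality weights (1 lower). Leaving out 1 of the 12 libraries gave 0 to 14 genes, 0 to 7 higher and 0 to 13 lower. The DESeq2 count of 202 ranged from 93 to 816 with 1 NIL-bri1-72 library left out, and was 358 on the 6 libraries alone and 504 with the replicate block within them. The DESeq2 fits that left out a library or used a block were chosen after seeing the data. The interaction gave 0 genes under every alternative that could give it. It could not be fitted in the 6 libraries. The 4 named genes kept their direction under all 24 alternatives, with edgeR, voom or DESeq2 adjusted p from 1.22e-19 to 0.491, and passed in 2 to 5 of them each. The count of 2533 non-overlapping genes was 2519 to 2535 under other scalings, the filter and thinning, with more lower than higher genes except under upper-quartile scaling. Why the tools' counts differ was not tested. The planned gene lists gave no value, because no identifier had a description. Genes with a library under 20 counts made up 3.58% of the table, 6 of the 91 and 2 of the 111 DESeq2 calls, and their levels are the least precise.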
